A study of Mus musculus with 106 samples.

Results

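In bone marrow-derived macrophages (BMDMs) of diabetic mice, 706 genomic regions held an H3K27ac peak among the 30000 best of most unstimulated lists. At most 1 of 6 lists with LPS plus IFN-γ held one there, though weaker peaks remained over many. Tested were 40086 regions, of 95157 merged regions in all. The 706 were chosen by their peaks. The 30000 peaks of lowest p in each of 23 H3K27ac BMDM lists were merged where they shared at least 1 bp. A region was kept when at least 4 of 5 diabetic unstimulated lists and at most 1 of 6 diabetic LPS+IFN-γ lists held one of these peaks. The H3K27ac values of the diabetic BMDMs therefore describe the choice and were not tested. The values in control BMDMs, in marrow progenitors and for H3K4me3 took no part in it.

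The study profiled 2 histone marks by ChIP-seq in C57BL/6J mice, 12 to 14 weeks of age, to ask how diabetes alters macrophage chromatin. Diabetes was induced with streptozotocin at 42 to 45 mg/kg per day for 5 days, and mice with blood glucose above 13.9 mmol/L were used 6 weeks later. BMDMs of diabetic and control mice were grown for 7 days with L929-conditioned medium in 5 mmol/L glucose, and were then kept unstimulated or given 100 ng/mL LPS with 10 ng/mL IFN-γ for 16 hours. Progenitors, called HSCs in the labels, were marrow depleted of cells carrying CD3, CD4, B220, Ter119 or Gr1, a gate that enriches but does not purify stem cells. Each mark had 6 libraries in each of the diabetic LPS+IFN-γ, control unstimulated, control LPS+IFN-γ, diabetic HSC and control HSC groups, and 5 in the diabetic unstimulated group (replicates 1, 2, 4, 5 and 6). In the study's methods n counts individual animals, while the labels do not tie a library to an animal.

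H3K27ac is an acetyl mark on histone H3 that lies at active promoters and enhancers, and H3K4me3 is a methyl mark that lies mostly at promoters. LPS acts through TLR4 and IFN-γ through its own receptor, and together they drive macrophages to an inflammatory (M1) state. In macrophages such stimulation is known to acetylate enhancers of inflammatory genes and to remove acetylation at parts of the enhancers used at rest.

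The DNA at the centre of 7 of the regions is printed first, as the 100 bp on either side of the summit, its median position over the diabetic unstimulated lists, in GRCm38 (plus strand, sequence from RefSeq). Ttpal and Slco2b1 name the members called lower in control BMDMs when 3 libraries were left out. Fkbp5 names a promoter among the lowest p-values there, and Smad6 a regulator of TGF-β signalling. Lmntd1, Sptb and Sigirr name members held by 5 of 5 and 0 of 6 diabetic lists. Of the members held so, that of Lmntd1 had the highest diabetic unstimulated median. Capitals mark matches, on either strand, to any of 15 short motifs.
Ttpal, chr2:163583238-163583438: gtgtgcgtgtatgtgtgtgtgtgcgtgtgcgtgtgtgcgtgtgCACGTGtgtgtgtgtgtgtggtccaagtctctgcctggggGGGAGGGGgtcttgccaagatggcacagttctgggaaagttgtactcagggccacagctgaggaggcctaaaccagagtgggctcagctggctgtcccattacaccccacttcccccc
Slco2b1, chr7:99675194-99675394: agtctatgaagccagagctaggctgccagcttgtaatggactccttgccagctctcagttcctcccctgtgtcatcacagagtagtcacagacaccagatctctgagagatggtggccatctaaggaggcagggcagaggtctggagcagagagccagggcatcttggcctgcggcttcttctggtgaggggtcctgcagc
Fkbp5, chr17:28517952-28518152: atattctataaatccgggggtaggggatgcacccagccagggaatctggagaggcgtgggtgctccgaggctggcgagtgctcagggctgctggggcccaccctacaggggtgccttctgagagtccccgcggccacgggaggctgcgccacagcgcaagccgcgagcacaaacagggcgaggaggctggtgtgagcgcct
Lmntd1, chr6:145351132-145351332: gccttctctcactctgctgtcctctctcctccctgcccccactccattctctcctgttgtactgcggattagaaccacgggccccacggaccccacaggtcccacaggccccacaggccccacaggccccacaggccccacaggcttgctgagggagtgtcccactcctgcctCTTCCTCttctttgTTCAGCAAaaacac
Sptb, chr12:76615950-76616150: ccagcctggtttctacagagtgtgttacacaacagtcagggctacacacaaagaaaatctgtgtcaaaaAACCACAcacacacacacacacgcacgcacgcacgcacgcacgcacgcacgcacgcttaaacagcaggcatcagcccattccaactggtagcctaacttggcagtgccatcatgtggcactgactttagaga
Sigirr, chr7:141100075-141100275: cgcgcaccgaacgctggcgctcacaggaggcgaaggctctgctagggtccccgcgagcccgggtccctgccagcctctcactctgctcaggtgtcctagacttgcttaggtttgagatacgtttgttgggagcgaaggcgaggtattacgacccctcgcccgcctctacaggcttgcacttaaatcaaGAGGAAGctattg
Smad6, chr9:64017168-64017368: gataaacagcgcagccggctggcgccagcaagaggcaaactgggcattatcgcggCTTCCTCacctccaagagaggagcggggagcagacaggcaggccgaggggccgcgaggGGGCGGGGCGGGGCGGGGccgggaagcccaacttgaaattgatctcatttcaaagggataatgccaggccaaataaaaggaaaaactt

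The Ttpal window held an E-box (CACGTG) and a KLF/SP match (GGGNGGGG), the Lmntd1 window a PU.1 match (GAGGAAG) and a C/EBP match (TTGCNNAA), and the Sptb window a RUNX match (TGTGGTT) beside a CA repeat. The Sigirr and Smad6 windows each held a PU.1 match, and the Smad6 window also held overlapping KLF/SP matches. The Slco2b1 and Fkbp5 windows held none of the 15. Over all members, the shares lay close to those of all tested regions, both read in windows of the same length around the median summit over the 23 H3K27ac lists. PU.1 letters stood in 62 members (8.78%, against 7.93% of all regions), AP-1 letters (TGANTCA) in 25 (3.54%, against 3.16%), C/EBP letters in 22 (3.12%, against 3.67%), NF-κB letters (GGANNTTCC) in 12 (1.70%, against 2.03%) and IRF letters (GAAANNGAA) in 11 (1.56%, against 2.38%). KLF/SP letters stood in 151 (21.4%, against 22.7%), E-box letters in 33 (4.67%, against 4.51%) and RUNX letters in 16 (2.27%, against 2.28%). Shares were lower than in all regions for the ETS letters CCGGAAG (2.27%, against 4.10%) and the YY1 letters AAGATGGCG (0.283%, against 1.6%), both common in promoters. Promoters were fewer among the members, as given below, and the motif shares do not allow for this. The letters of CRE (TGACGTCA), M-box (CATGTGAC), E2F (TTCCCGCC), NRF1 (GCGCATGCG) and NFY (CCAATCAG) were in at most 10 members each, or in at most 1.42% of members and 1.36% of all regions. Both strands were searched, and no motif contains another.

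Promoters were fewer among the members than among all regions. The rule leaves out regions that most diabetic LPS+IFN-γ lists held. Those libraries held a median of 78.9% of all promoter regions and 45.5% of all regions outside promoters. The shares below do not allow for this, and the part of the rule in them was not tested. A summit within 1000 bp of a protein-coding start was found for 182 members (25.8%, against 36.4% of all regions), whereas coding exons held 102 (14.4%, against 7.18%), introns 213 (30.2%, against 29.0%), intergenic sequence 177 (25.1%, against 24.8%), UTRs 26 (3.68%, against 1.92%) and other exons 6. Members were placed by their summit in the diabetic unstimulated lists and the other regions by that over the 23 lists, and with the latter for all, promoters held 184 members (26.1%) and coding exons 105 (14.9%). Summits over 10000 bp from any start made up 40.9% of members and 36.3% of all regions. Median width was 1208 bp (1294 bp for all) and median GC content of the central window was 62.7% (61.7%). The members were nearest to 658 genes, so most genes were named by a single region. Krt80, Nr4a1, Sptb, Tbc1d1, Tnrc18 and Trio were among the genes with 3 members each, and 34 genes had 2. Neighbouring members with summits under 10000 bp apart formed 19 pairs.

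Strength was compared as a percentile. In each library a region took the highest -log10 p of any deposited peak over it, and these were ranked over the 40086 regions from 0 to 100, with regions that had no peak sharing their mean rank. A percentile has no unit of acetylation and gives only the order within a library, so a loss common to all regions would not show. The depth of the libraries is unknown, since the lists hold no read totals. H3K27ac BMDM lists held 52470 to 176559 peaks, and the -log10 p of the 30000th peak ranged from 6.96 to 22.5.

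In 2 control libraries H3K27ac lay in the range of the opposite group, though the 2 control groups stood close together. At 38 promoter regions of interferon and LPS induced genes, which rise on stimulation, the median percentile was 73 to 79.5 in control LPS+IFN-γ libraries except replicate 5, at 65.6. It was 63.6 to 72 in control unstimulated libraries except replicate 6, at 73.9. Unstimulated replicate 5, at 70.9, lay inside the range of its group here, but it had been named with these 2 from earlier results of these data. Diabetic libraries did not overlap, at 53.2 to 68.1 unstimulated and 69.5 to 82.8 stimulated. Control results are therefore given with all 12 libraries, without the 3, and, for the members as a group, without the 2. These libraries were picked on these same lists, so larger differences without them are no independent support. Macrophage surface genes had a top H3K27ac peak at 16 to 27 of 41 promoters in BMDM libraries. HSC libraries had one at 15 to 19 in diabetic and 16 to 20 in control mice, so this list hardly told the cells apart. Stem and progenitor genes (Kit, Gata2, Cd34, Flt3, Meis1, Erg and Mycn) had one at 4 to 7 of 7 promoters in HSC libraries. In BMDMs their count moved with the groups: 3 to 6 of 7 in diabetic unstimulated, 0 to 4 in diabetic LPS+IFN-γ, 1 to 7 in control unstimulated and 1 to 5 in control LPS+IFN-γ libraries. Their part in the results on the members was not tested.

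The choice set the diabetic values. Diabetic unstimulated libraries held 78.2%, 88.7%, 80%, 86.8% and 88.5% of members in replicates 1, 2, 4, 5 and 6, and the diabetic LPS+IFN-γ libraries held 2.69% to 25.4% (median 9.87%). The highest of the stimulated libraries was replicate 6, and the others reached at most 10.1%. All 40086 regions were held at 49.8% to 59.1% and 54.1% to 60.8% in the same groups. The median percentile of members was 55.2 to 60.4 in unstimulated and 14.2 to 28.9 in stimulated libraries, so in unstimulated cells these were middling and not leading peaks.

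No member lost its peak in every stimulated list, but many had none in some. A deposited peak of any strength stood over 88.8% to 99.9% of members in diabetic unstimulated libraries (mean 96.4%) and over 46.2% to 93.5% in LPS+IFN-γ ones (mean 72.4%), where replicates 5, 4 and 3 were lowest at 46.2%, 62.2% and 63.5%. Of all regions, 65.6% to 96% (mean 83.3%) and 71.7% to 95.1% (mean 84.8%) had one. Over the 6 stimulated lists, 128 members (18.1%) had some peak in all 6, 217 (30.7%) in 5, 193 (27.3%) in 4, 114 (16.1%) in 3, 46 (6.52%) in 2 and 8 (1.13%) in 1. Of the 706, 41 were held by 5 of 5 and 0 of 6 lists, 116 by 5 and 1, 194 by 4 and 0, and 355 by 4 and 1. Members just inside the rule, at 4 and 1, had median percentiles of 56.5 unstimulated and 26.6 stimulated. Just outside it, the 463 regions at 4 and 2 had 57.6 and 33.2, and the 903 regions at 3 and 1 had 49.3 and 23.8.

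**Figure D1:**
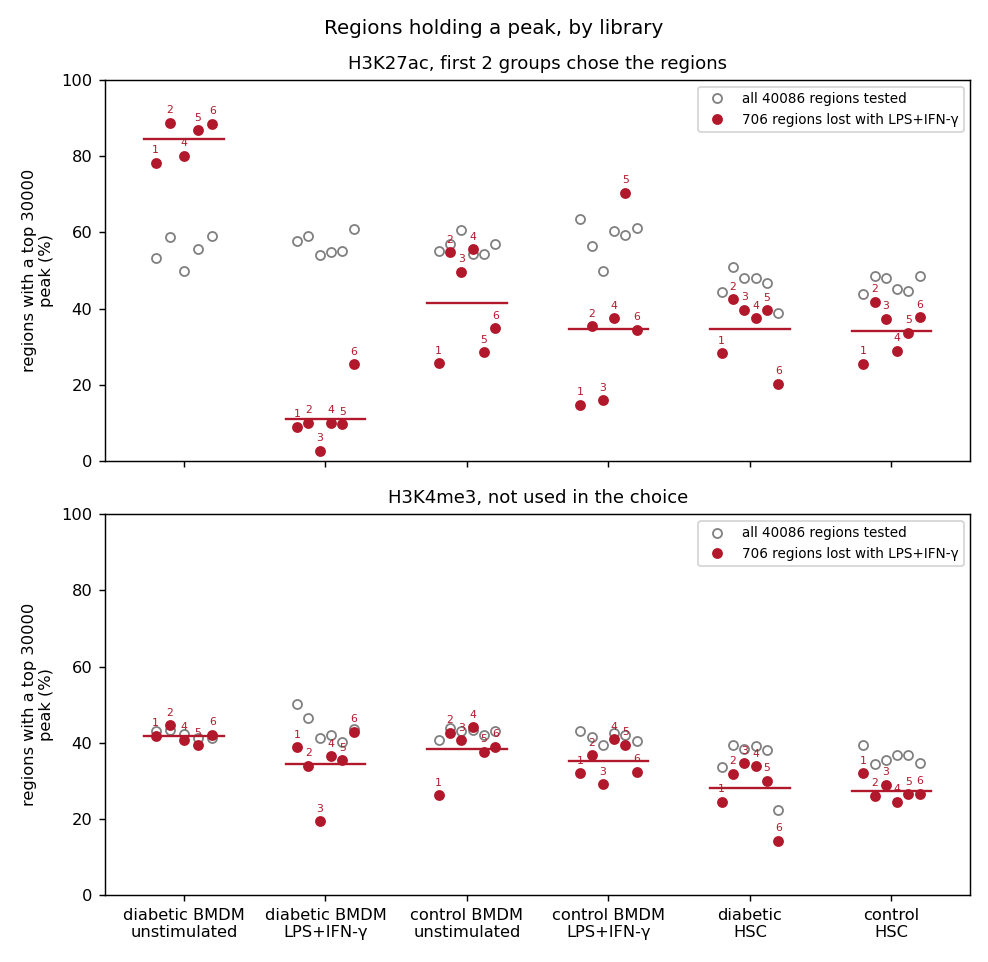
Share of regions with a top 30000 peak (%, y axis) in each library by group (x axis), for H3K27ac (top) and H3K4me3 (bottom). Red points are the 706 members with replicate numbers, red lines their group means, and open points all 40086 regions. Diabetic HSC replicate 6 for H3K4me3 listed only 13730 peaks, all of which were used. Members were held at 25.6% to 55.5% in control unstimulated and 14.7% to 70.3% in control LPS+IFN-γ H3K27ac libraries.

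The first question was whether the same regions were weaker with LPS+IFN-γ in control BMDMs, whose lists took no part in the choice. More members were lower than higher there, but no single region passed the test. By library, the median percentile of members was 30 to 49.7 unstimulated (mean 38.4, standard deviation 8.1). In stimulated libraries it was 18.4 to 51 (mean 32.4, standard deviation 10.9). That difference was not tested across libraries, and counts of members below do not stand for replicates. Control unstimulated libraries held 25.6% to 55.5% of members (median 42.2%) and control LPS+IFN-γ libraries 14.7% to 70.3% (median 34.9%). The groups overlapped. LPS+IFN-γ replicate 5 stood highest of all 12 libraries, and the lowest unstimulated library, replicate 1 at 25.6%, lay under 4 stimulated ones. Both of the replicates numbered 1 also had the lowest promoter share among their top peaks, 40.8% and 40.4%, and 1 and 2 of the 7 stem and progenitor promoters marked.

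The difference in mean percentile, LPS+IFN-γ minus unstimulated, was below 0 for 512 of 706 members (72.5%, against 50.5% of all regions). Its median was -5.94 points for members and -0.08 for all regions, and the middle 90% of members ran from -20.65 to 9.87 points. At an unadjusted p under 0.05, limma gave 30 members lower (4.25%) where 1.98% of all regions were, and 2 members higher (0.283%) where 2.75% were. After Benjamini-Hochberg adjustment over all 40086 regions limma called 0 members, with a lowest adjusted p of 0.998, and Fisher's exact test on peak holding also called 0, with 0 members lower and 1 higher at an unadjusted p under 0.05. Leaving out 1 library moved the 30 to 16 without unstimulated replicate 2, to 19, 18, 17 and 19 without LPS+IFN-γ replicates 1, 2, 3 and 6, and to 68 without LPS+IFN-γ replicate 5, where 1.38% to 3.28% of all regions were lower with any 1 of the 12 left out. The median moved to -3.53 points without LPS+IFN-γ replicate 1 and to -9.09 without replicate 5. Without the 3 libraries 558 members (79%) lay below 0, the median was -10.6 points (-0.23 for all regions), and 104 members (14.7%) were lower and 2 (0.283%) higher at an unadjusted p under 0.05, where 4.81% and 6.11% of all regions were. Adjusted p under 0.05 was then reached by 2 members, both lower (0.0499% of all regions were called lower). Without the 2 libraries alone, 539 members (76.3%) lay below 0, the median was -9.38 points, 79 (11.2%) were lower at an unadjusted p under 0.05, where 3.63% of all regions were, and limma called 0 members after adjustment, so both calls came only with unstimulated replicate 5 left out too.

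Held by the same kind of rule in control lists, at least 5 of 6 unstimulated and at most 1 of 6 stimulated, were 6 members (0.850%), where 0.115% of all regions were. Without the 3 libraries a rule of at least 3 of 4 and at most 1 of 5 took 104 members (14.7%), where 2.76% of all regions passed. More unstimulated than stimulated control lists held 334 members (47.3%, against 25.4% of all regions), and fewer held 184 (26.1%, against 30.7%). In 10 members (1.42%, against 0.501% of all regions) no control list held a top peak.

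**Figure D2:**
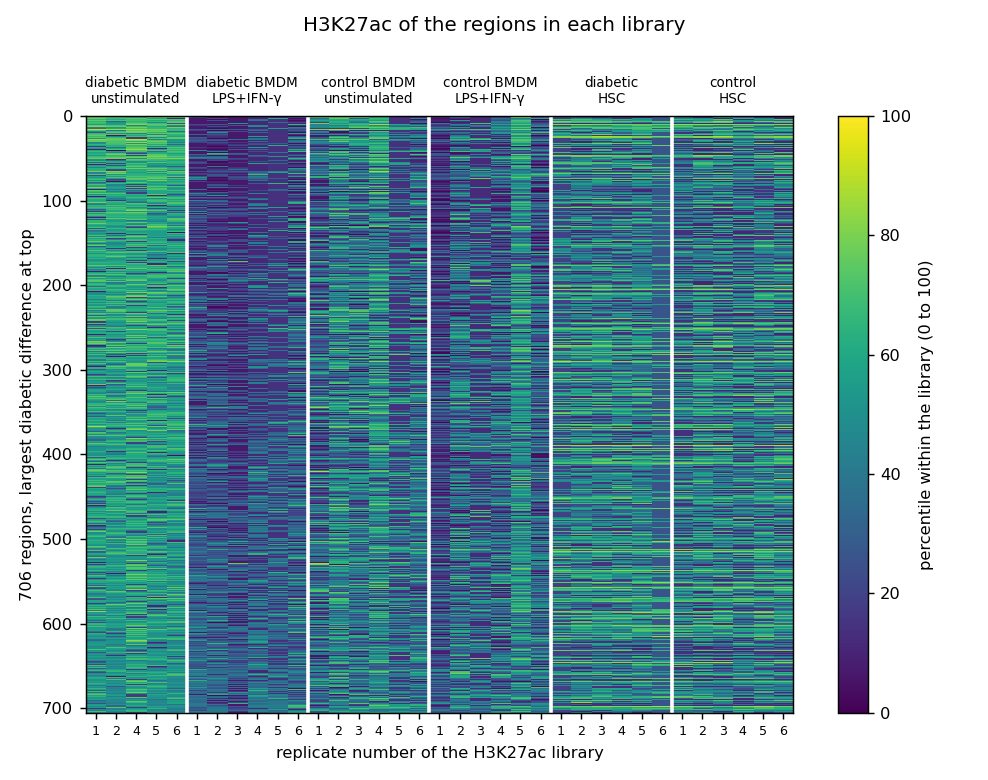
H3K27ac percentile (colour, 0 to 100) of the 706 members (rows, ordered by the diabetic difference that chose them) in each H3K27ac library (columns, replicate numbers by group). The first 2 blocks differ by choice, control LPS+IFN-γ replicate 5 is brighter than the other stimulated libraries, and control replicate 1 is dark in both control blocks.

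The median lay below 0 for each kind of member except other exons. Median control differences were -8.83 points for the 41 members at 5 and 0 lists, -7.07 for the 116 at 5 and 1, -5.84 for the 194 at 4 and 0, and -5.41 for the 355 at 4 and 1. Promoter members had a median of -8.05 points (149 of 182 below 0), coding exon members -6.56, intergenic members -4.95, intron members -4.72 and UTR members -4.35. The 6 members in other exons had a median of 2.765. In the same 6 places the medians of all regions lay between -1.04 and 2.055. Differences between the classes were not tested.

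The 12 members of lowest unadjusted p with a lower level were named by that p, so their values describe the extremes. At Ttpal, a gene of the α-tocopherol transfer protein family, the region lay 18976 bp from the start in intergenic sequence. Its percentile was 69.9, 67.3, 65.5, 56.3 and 54.1 in the diabetic unstimulated libraries and 14.2 to 38.1 (median 34.5) with LPS+IFN-γ. In control BMDMs it ran from 14.4 to 87.9 unstimulated (median 67.2) and from 5.13 to 57.5 stimulated (median 25.7). The lowest unstimulated library was replicate 5, with no peak, and the highest stimulated one was also numbered 5, so the groups overlapped only through the replicates numbered 5. The control difference was -32.7 ± 11.7 points (SE; limma adjusted p = 0.998), and -55.2 ± 12.0 without the 3 libraries (limma adjusted p = 0.0317).

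Slco2b1 encodes an organic anion transporter and had 2 members, of which an intronic region was among these 12. Diabetic unstimulated percentiles were 57.4, 49.1, 64.2, 51.8 and 28.4, and stimulated ones 4.02 to 45.8 (median 30.1). Control unstimulated libraries ran from 4.02 to 79.8 (median 61.8) and stimulated ones from 5.13 to 49.4 (median 11.3). Only replicate 6, which had no peak there, lay low in the unstimulated group, and the other 5 stood above every stimulated library. The difference was -33.6 ± 11.7 points (limma adjusted p = 0.998), and -52.5 ± 12.1 without the 3 libraries (limma adjusted p = 0.0462).

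Fkbp5, the co-chaperone of the glucocorticoid receptor, had a member at its promoter, 525 bp from the start. It was at 57, 56.6, 75.5, 66 and 70.1 in diabetic unstimulated and 14.2 to 73.2 (median 30.0) in diabetic LPS+IFN-γ libraries. In control BMDMs the ranges were 29.7 to 66.8 (median 60.6) and 12.2 to 51.3 (median 20.3), which overlapped through unstimulated replicates 2 and 6. The difference was -27.5 ± 11 points (limma adjusted p = 0.998), and HSC libraries held the region in 12 of 12 lists.

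Tnfrsf1a, which encodes TNF receptor 1, was nearest to a member in an intron of Plekhg6, and Elovl5, an elongase of polyunsaturated fatty acids, to a member at its promoter. Control differences were -30.6 ± 10.9 points at Tnfrsf1a and -27.1 ± 11.1 at Elovl5. Majin, a protein that attaches telomeres in meiosis, had an intergenic member at 1.67 to 32.2 in stimulated and 14.4 to 61.6 in unstimulated control libraries. Otop2, a proton channel gene, had an intronic member at 2.42 to 28.4 and 14.4 to 69.8 that no HSC list held. Ptma, which encodes prothymosin α, and Kcnk7, of the 2-pore potassium channel family, had differences of -26.9 and -25.5 points. The other 3 of the 12, nearest Btbd17, Fam49a and Sestd1, had -33.3, -25.2 and -24.5 points.

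**Figure D3:**
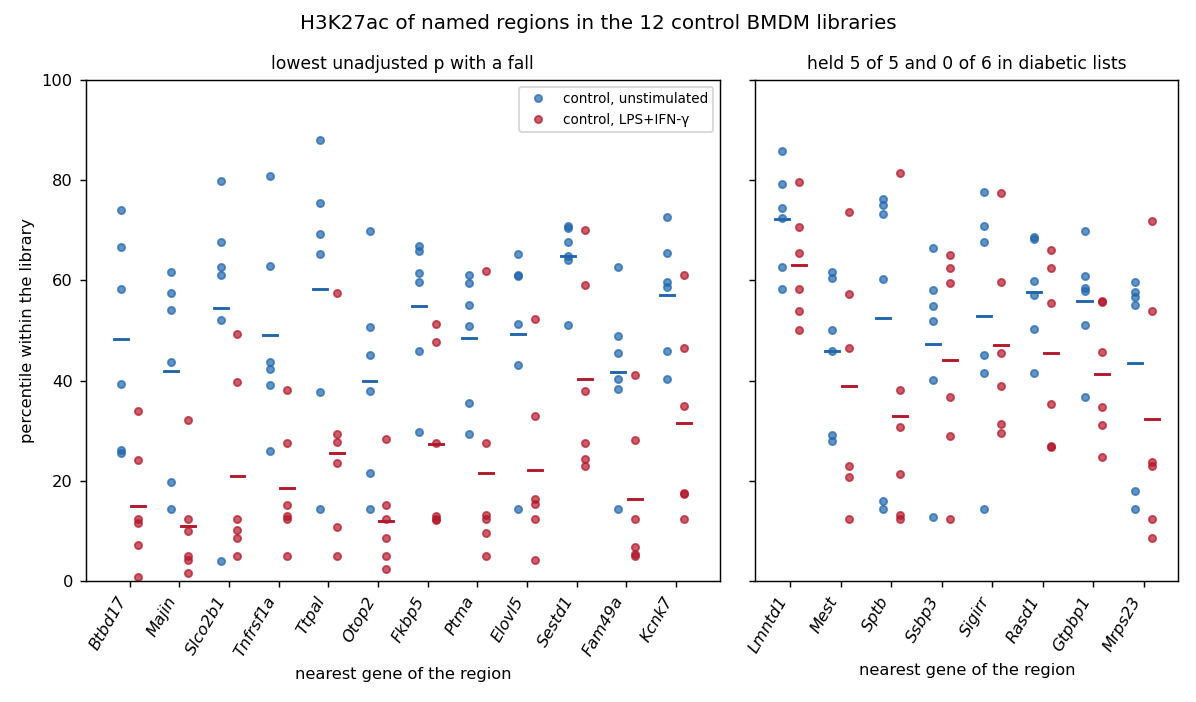
H3K27ac percentile (y axis) of named members in the 12 control BMDM libraries, unstimulated in blue and LPS+IFN-γ in red, with group means as bars. Left, the 12 members of lowest unadjusted p, whose means are lower with LPS+IFN-γ by choice. Right, 8 members chosen on diabetic lists alone, all with a lower stimulated mean and overlapping libraries.

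A second set was named on diabetic values alone, the 8 of highest diabetic unstimulated median among the 41 members at 5 and 0 lists. All 8 had control differences below 0, from -19.7 to -3.14 points, and none had an unadjusted p under 0.05 in limma. The strongest, 82849 bp from Lmntd1, was at 90.4, 85.7, 84.3, 77.8 and 66.9 in diabetic unstimulated libraries. With LPS+IFN-γ it was at 14.2 to 32.3 (median 28.3). In control BMDMs the same region was held by 12 of 12 lists, at 58.2 to 85.8 unstimulated (median 73.5) and 50.1 to 79.6 stimulated (median 61.9), so here the control libraries kept the peak.

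An intronic region of Sptb, which encodes β-spectrin of the red cell skeleton, was at 77.4, 71.4, 63.0, 76.7 and 73.0 in diabetic unstimulated and at 5.31 to 26.4 (median 12.6) in stimulated libraries. Control libraries ran from 14.4 to 76.3 (median 66.7) and from 12.4 to 81.4 (median 26.0), and the 3 libraries left out held the extremes, with LPS+IFN-γ replicate 5 highest and unstimulated replicates 5 and 6 lowest. The difference was -19.7 ± 12.3 points with all libraries and -48.0 ± 11.9 without the 3 (limma adjusted p = 0.0683). No HSC list held it. All 3 members at Sptb lay below 0 in control BMDMs.

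Sigirr encodes an inhibitor of IL-1 receptor and Toll-like receptor signalling. Its promoter member was at 64.1, 54.2, 75.2, 76.5 and 71.4 in diabetic unstimulated and 7.36 to 35.6 (median 24.8) in stimulated libraries, yet all 6 of the latter had some deposited peak. Control libraries ran from 14.5 to 77.6 (median 56.3) and 29.6 to 77.4 (median 42.2), which overlapped throughout, and the difference was -5.79 ± 11.1 points. Rasd1, a Ras-related gene induced by dexamethasone, had a promoter member with a difference of -12.2 ± 10.3. The members nearest Mrps23 (a mitochondrial ribosomal protein), the imprinted gene Mest, and Ssbp3 (a partner of LDB1) had -11.3, -6.98 and -3.14 points, and the one at Gtpbp1 had -14.5.

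Pde3b and Zfp395, put forward as marker genes of the lost regions, had no member at their start. The promoter region of Pde3b, a phosphodiesterase that degrades cAMP, was held by 5 of 5 diabetic unstimulated and 5 of 6 diabetic LPS+IFN-γ lists, at 84.7 to 91.3 (median 89.1) and 26.7 to 74.9 (median 67.1). That of Zfp395 was held in the same numbers, at 83.2 to 94.3 (median 88.2) and 42.3 to 75.7 (median 71.3). Both were lower in every stimulated diabetic library than in any unstimulated one, and left the 30000 best peaks in 1 stimulated library each. Control differences were -7.90 ± 6.05 points at Pde3b and -9.92 ± 5.13 at Zfp395 (limma adjusted p = 0.998 for both).

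**Figure D4:**
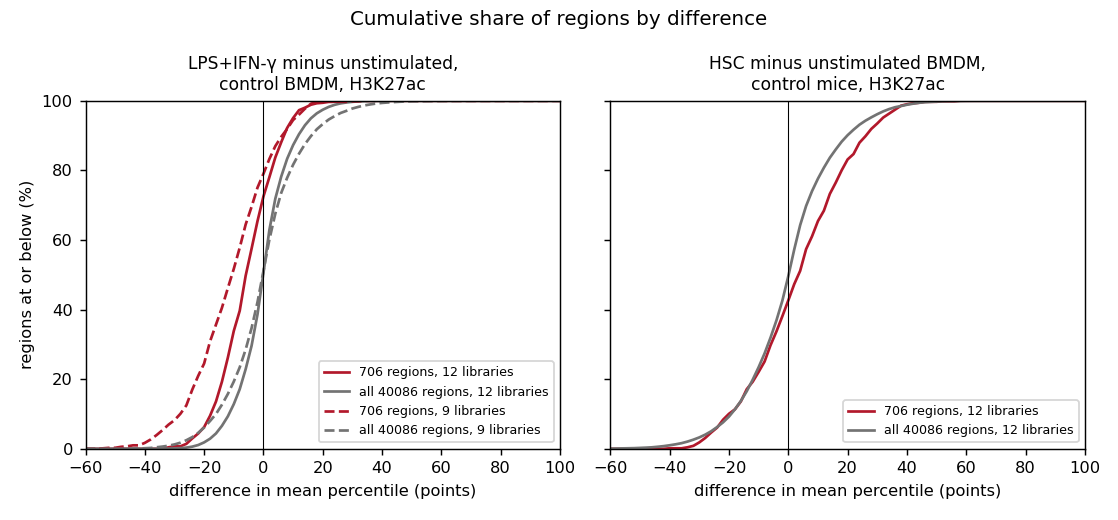
Cumulative share of regions (%, y axis) at or below each difference in mean H3K27ac percentile (points, x axis), for members (red) and all regions (grey). Left, LPS+IFN-γ minus unstimulated control BMDMs with 12 libraries (solid) or 9 (dashed), where 72.5% and 79% of members lie below 0. Right, HSC minus unstimulated BMDM in control mice, where the member median is 3.37 points.

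Gene lists covering 405 genes were read next by nearest gene. Members made up 1.76% of all tested regions, which is the share to hold each list against. Macrophage identity factors had 9 members of 422 regions (2.13%), alternative activation genes 2 of 87 (2.30%), lipid and cholesterol genes 6 of 196 (3.06%), cyclic nucleotide signalling 4 of 227 (1.76%), and TGF-β and BMP signalling 5 of 176 (2.84%). Interferon and LPS induced genes had 0 of 169, macrophage surface genes 0 of 167, cell cycle and replication genes 0 of 120, and mitochondrial oxidation genes 0 of 72. Markers of neutrophils, B cells, T and NK cells and erythroid cells had none among 14, 6, 11 and 3 regions. Fibroblast markers had 1 of 8 (Pdgfrb) and dendritic cell markers 1 of 13 (Batf3). These counts are small, and the lists were not tested.

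Among identity factors, the immediate-early nuclear receptor Nr4a1 had 3 members within 19839 bp, with control differences of -2.09, 2.71 and 5.66 points. Members near Runx1, Runx3 and the repressor Bach2 had -12.2, -8.90 and -8.94 points, and that near Zfp36l2, which promotes mRNA decay, had -1.63. The intronic member of Batf3, of the AP-1 family, had 12.6 ± 11.5. Of the 9, 5 lay below 0 and 0 had an unadjusted p under 0.05 in limma.

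Lipid and cholesterol genes held both of the extremes of these lists, Elovl5 and Sqle. Srebf2, the transcription factor that drives cholesterol synthesis, had 2 members, with control differences of -24.8 ± 10.7 and -2.97 ± 11.1 points. The former, in a coding exon, was at 65.5, 60.1, 17.2, 49.0 and 43.1 in diabetic unstimulated libraries and at 8.57 to 55.2 (median 19.4) in stimulated ones. Sqle, the squalene epoxidase of the same pathway, had the opposite sign in control BMDMs. Its member was at 50.0, 49.9, 49.7, 72.0 and 62.6 in diabetic unstimulated and 11.1 to 45.2 (median 16.2) in diabetic stimulated libraries, whereas control libraries ran from 4 to 33.6 unstimulated (median 13.7) and 27 to 67.3 stimulated (median 46.2). The control difference was 30.7 ± 10.5 points (limma unadjusted p = 0.0051, adjusted p = 0.998), and the H3K4me3 difference in diabetic BMDMs was -24.0 ± 11. The members at Lpl (lipoprotein lipase) and Cpt1a (fatty acid import into mitochondria) had -2.75 and 6.37 points.

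In the cyclic nucleotide list, the adenylyl cyclase gene Adcy3 had a promoter member with a control difference of -20.5 ± 11.6 points and an intronic one at -6.43. Members near Adcy9, another adenylyl cyclase, and Prkacb, a catalytic subunit of protein kinase A, had -3.46 and -5.03. In TGF-β signalling, the member 191496 bp from the receptor gene Tgfbr2 had -13.5 ± 10.8 points, and those at Skil, a SMAD corepressor, and at Ltbp3, which binds latent TGF-β, had -3.89, -1.52 and -3.58. The promoter member of Smad6, an inhibitory SMAD, was at 41.5, 50.9, 51.1, 69.8 and 61.4 in diabetic unstimulated and 6.49 to 61 (median 18.9) in stimulated libraries. In control cells it had 6.28 to 74.9 (median 44.3) and 15.2 to 75.1 (median 53.3), ranges that nearly coincided. Myc and Ppard, from the alternative activation list, had -2.58 and -0.84.

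**Figure D5:**
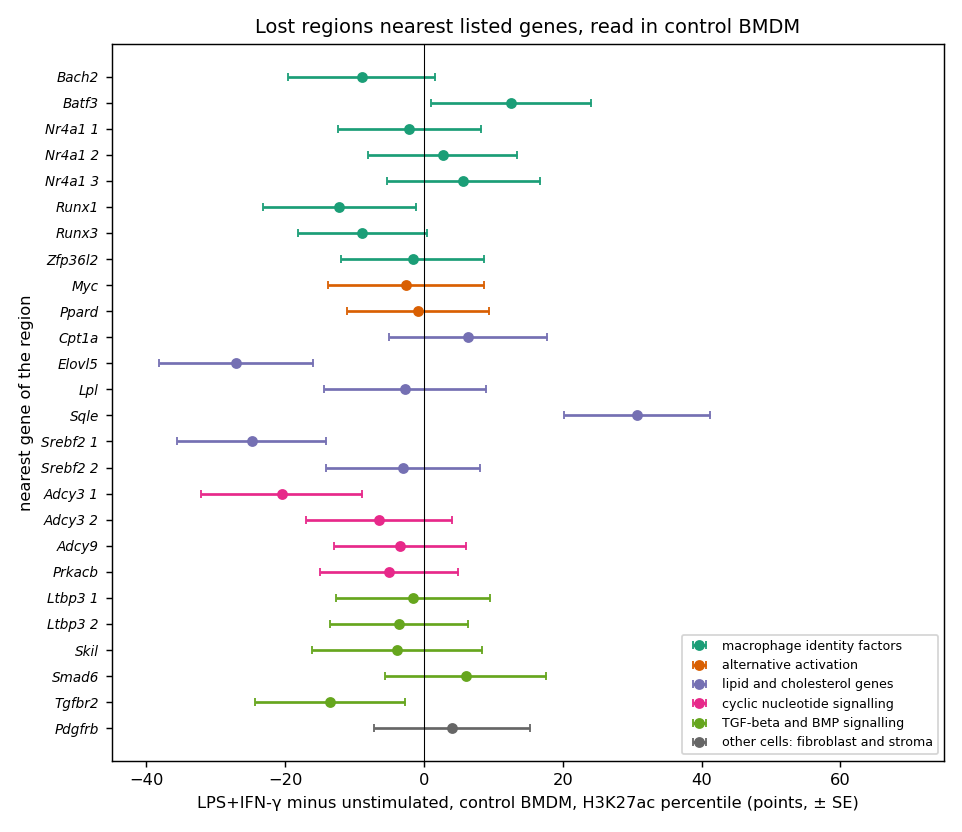
Control H3K27ac difference, LPS+IFN-γ minus unstimulated (percentile points, x axis; bars are SE), for 26 members nearest a listed gene (y axis), coloured by list. Sqle lies at 30.7 and Elovl5 at -27.1 points, and most bars cross 0.

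H3K4me3 was a separate immunoprecipitation, though it may come from the same cultures as H3K27ac. Its lists may also share their inputs with the H3K27ac lists that chose the members, and the part of a shared input was not tested. In diabetic BMDMs more members were lower than higher for this mark too with LPS+IFN-γ, but none passed adjustment. By library, their median percentile was 51.7 to 55.1 unstimulated and 32.7 to 52.5 stimulated, a difference not tested across libraries. They were held at 39.4% to 44.6% in unstimulated and 19.5% to 42.9% in stimulated libraries, where replicate 3 stood lowest. The median difference was -6.95 points (-0.43 for all regions), 551 members lay below 0 (78%, against 52.2%), and 73 members (10.3%) were lower at an unadjusted p under 0.05, where 2.90% of all regions were. Without stimulated replicate 3 these were -5.13 points and 58 members, and without stimulated replicate 1 46 members were lower. In control BMDMs the median was -0.94 points, and 18 members (2.55%) were lower at an unadjusted p under 0.05, where 1.47% of all regions were. limma called 0 members in either group. The difference of the 2 effects had a median of -5.60 points (-0.45 for all regions), with 35 members (4.96%) lower at an unadjusted p under 0.05, where 1.88% of all regions were, and 0 called by limma. The 35 were 23 without control unstimulated replicate 1. With regions ranked by fold enrichment in place of p there was no excess, with 12 members lower (1.70%, against 2.17% of all regions) and 14 higher (1.98%, against 1.94%).

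At members' promoters H3K4me3 was less often among the top peaks than at all promoter regions. All promoter regions include those held in more than 1 of 6 diabetic LPS+IFN-γ H3K27ac lists, which the rule leaves out. Their median H3K27ac percentile in diabetic unstimulated libraries was 79.6, against 58 for promoter members. The shares below do not allow for this. Of the 182 promoter members, 66.5% to 68.7% held a top H3K4me3 peak in diabetic unstimulated and 40.1% to 70.3% in diabetic LPS+IFN-γ libraries, against 54.4% to 70.9% and 51.1% to 68.1% in control ones. HSC libraries held 33.5% to 63.7% in diabetic and 54.4% to 64.3% in control mice. Group medians were 57.1% to 67% for these members and 74.2% to 78.8% for all 14603 promoter regions, a difference that was not tested. Their H3K27ac peak was held at 72.5% to 95.1% in diabetic unstimulated and 1.65% to 34.1% in diabetic stimulated libraries. At Rasd1 the promoter's H3K4me3 median percentile was 82.3 unstimulated and 74.3 stimulated in diabetic cells, and at Sigirr 73.5 and 67.9. At the Lmntd1 region the medians were 52.2 and 49.4.

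In HSCs, members were held at 20.3% to 42.4% over both groups of mice, against 38.8% to 50.9% of all regions. Held by 6 of 6 control HSC lists were 63 members (8.92%, against 30.4% of all regions) and by none 208 (29.5%, against 32.0%). All regions again include those held in more than 1 of 6 diabetic LPS+IFN-γ lists, which the rule leaves out, and these shares do not allow for it. Compared with unstimulated BMDMs of control mice, limma at an adjusted p under 0.05 called 68 members higher in HSCs (9.63%), where 7.86% of all regions were, and 28 lower (3.97%), where 6.99% were. The higher count is close to the background. With regions ranked by fold, 3.54% of members were called higher, against 4.97% of all regions, and 1.27% lower, against 3.80%. Without control unstimulated replicates 5 and 6 the counts were 53 (7.51%, against 6.58%) and 40 (5.67%, against 6.30%). Without HSC replicate 2 or 6 the higher count was 45 (6.37%, against 5.55% and 5.73% of all regions). The lower count was 11 and 16 without unstimulated replicates 2 and 3 and 10 to 15 without any 1 HSC library. Of all regions, 5.36% to 7.28% were called lower with any 1 of these libraries left out. Promoters made up 30 of the 68 and 3 of the 28, against 1669 of 3149 and 913 of 2802 over all regions. Of promoter members 16.5% were called higher and 1.65% lower, against 11.4% and 6.25% of all promoter regions.

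Members higher in HSCs included the promoter of F2rl3, the thrombin receptor PAR4, at 69.6 to 80.2 in HSC and 14.4 to 39.4 in unstimulated BMDM libraries of control mice, a difference of 45.9 ± 8.14 points (limma adjusted p = 0.000259). The groups did not overlap. A region nearest the calcium channel gene Orai3, in a coding exon of Fbxl19, differed by 51.9 ± 7.88 (limma adjusted p = 5.1e-05), and the promoter of Spn, which encodes CD43 of leukocytes, by 35.4 ± 7.09 (limma adjusted p = 0.000928). The Tgfbr2 member was also higher, by 38.1 ± 9.21 (limma adjusted p = 0.00493). Lower in HSCs were members in introns or exons of Syne1, a nuclear envelope protein, at -41.5 ± 10.5, Map3k14, the NF-κB-inducing kinase, at -32.3 ± 9.79, and the promoter of Anapc7, a subunit of the anaphase-promoting complex, at -34.1 ± 9.27 (limma adjusted p from 0.00721 to 0.0229). HSC libraries also marked 8 to 11 of 11 erythroid promoters against 2 to 5 in BMDMs, and the part of mixed cells in these differences was not tested.

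H3K4me3 lists were mostly shorter in control HSC (37378 to 109214 peaks) than in control unstimulated BMDM libraries (81003 to 212718). Any deposited peak stood over a median of 42.8% and 78.6% of all regions, so many HSC values were tied ranks without a peak. The part of list length was not tested. For H3K4me3, 20 members (2.83%) were called higher in HSCs, where 11.7% of all regions were, and 30 (4.25%) lower, where 3.61% were. With regions that had no peak set to 0 instead of their mean rank, these were 8 higher (1.13%, against 1.38%) and 160 lower (22.7%, against 12.5%). The lower count was 67, 50 and 19 without BMDM replicate 1, HSC replicate 1 and BMDM replicate 6 (6.07%, 4.66% and 2.13% of all regions). The higher count was 13, 13 and 11 without HSC replicates 2, 3 and 5 (9.55%, 10.1% and 9.83% of all regions). Spn was among the higher ones, at 25.3 ± 8.54 points (limma adjusted p = 0.0441). Diabetic and control HSCs were compared for H3K27ac, and diabetic and control unstimulated BMDMs for H3K4me3. limma called 0 members in either, and at an unadjusted p under 0.05 gave 20 higher (2.83%, against 2.01% of all regions) and 9 lower (1.27%, against 1.64%) in diabetic HSCs, and 13 higher (1.84%, against 2.67%) and 6 lower (0.850%, against 2.09%) in diabetic BMDMs.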

How the data were processed

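H3K27ac and H3K4me3 were measured by ChIP-seq in BMDMs and lineage-depleted marrow, and 70 narrowPeak lists were read out of 106 samples; the other 36 are inputs. Per the labels, reads were 50 bp singles and the submitters' processing notes name Bowtie2 2.2.6, MACS2 2.2.7.1 and the builds GRCm38 and mm10, with no role given. Peaks were called for each library against an input, not on pooled samples. The 36 inputs carry no mark in their labels, so the H3K27ac and H3K4me3 lists of one replicate may share an input. The deposited columns hold a score (10 times the -log10 q), the fold enrichment at the summit as a ratio, -log10 p and -log10 q, and another column with the summit's offset. The authors gave no counts or read totals, so the depth of each library and the counting error are unknown.

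Tested regions were those held by at least 4 of the 23 H3K27ac BMDM lists. Percentiles were fitted with limma 3.58.1 (R 4.3.3; eBayes with trend, two-sided, Benjamini-Hochberg over all 40086 regions, threshold 0.05), checked on data with known shifts. Tables were made in Python 3.11.15. Starts are those of protein-coding genes in GENCODE M21, and sequences are from RefSeq for GRCm38. A member was named for 1 of 4 reasons: a marker gene given for the set, the 12 lowest unadjusted p-values with a lower control level, the 8 highest diabetic unstimulated medians at 5 of 5 and 0 of 6 lists, or a listed nearest gene. The members named for HSCs were picked after their values were seen. The members and lists were chosen with earlier results of these data known. Some named genes are not reported here.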

Additional observations from a re-analysis of the deposited data

Results flagged for a closer look

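In 11 of 76 groups of 5 or 6 libraries, 1 library stood apart from the others by Dixon's 95% limit, where chance gives about 1 in 20, or 3.8. Most lie in summaries of the members. Diabetic LPS+IFN-γ replicate 6 held 25.4% of members for H3K27ac, the highest of its group, which is one of the values that chose them. For H3K4me3, control unstimulated replicate 1 was lowest, with 26.3% of members held and a median percentile of 42. Members with any deposited H3K27ac peak made up 52.4% in control LPS+IFN-γ replicate 3 and 52% in control unstimulated replicate 5, each the lowest of its group. The median percentile was lowest in diabetic HSC replicate 6 for H3K27ac, at 25.8, and highest in control HSC replicate 1 for H3K4me3, at 49.5.

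At single regions, control LPS+IFN-γ replicate 5 was apart as the highest at Majin (percentile 32.2) and Sptb (81.4), control unstimulated replicate 6 as the lowest at Slco2b1 (4.02), and control unstimulated replicate 1 as the lowest at Sestd1 (51.1). The first 3 of these 4 values belong to the control libraries that lay in the range of the opposite group at promoters of interferon and LPS induced genes.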

How the results depend on the processing

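The number of regions chosen moved from 706 to 423 with the top 20000 peaks, 1063 with the top 40000, 41 at 5 of 5 and 0 of 6 lists, 1365 at up to 2 of 6, and 237 to 1120 when 1 list was left out (4 of 4 was then required, which is stricter). In control BMDMs H3K27ac, leaving out the 3 libraries gave 2 members called, 104 lower at an unadjusted p under 0.05 and a median of -10.6 points. With the replicate block as well, added after seeing the data, these were 4 (0.567%, against 0.117% of all regions called lower), 126 (17.8%, against 6.54%) and -11. Without the 2 libraries outside the range of their group, also added after seeing the data, they were 0, 79 and -9.38. Lower members numbered 4 among the 41 strictest (1.98% of all regions), 0 by Fisher's exact test (0.0324% of all regions) and 16 to 68 with 1 library left out (1.38% to 3.28%), and the median was -3.87 over all merged regions and -9.09 to -3.53 with 1 left out. Over all regions, 20 were lower and 70 higher without the 3.

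Diabetic H3K4me3 gave 41 lower members when ranked by fold (5.81%, against 2.47% of all regions) and 46 to 87 with 1 library left out (2.26% to 3.80% of all regions). Its median was -4.59 over all merged regions. Control H3K4me3 gave 12 to 23 with 1 left out (1.28% to 2.15% of all regions). The difference of the effects gave 12 by fold (2.17% of all regions) and 23 to 51 (1.63% to 2.63%). HSC H3K27ac calls were 34 by fold, 25 higher (3.54%, against 4.97% of all regions) and 9 lower (1.27%, against 3.80%). Over all merged regions they were 51, with 35 higher (4.96%, against 3.55%) and 16 lower (2.27%, against 2.56%). Fisher's exact test called 0, and normal scores gave 18 lower (2.55%, against 6.59%). With 1 left out there were 55 to 105 calls, 45 to 84 higher (5.47% to 8.62% of all regions) and 10 to 34 lower (5.36% to 7.28%). HSC H3K4me3 calls were 168 with regions without a peak at 0 (8 higher, 160 lower, against 1.38% and 12.5% of all regions) and 95 over all merged regions (13, 82, against 19.2% and 4.28%). By fold 9 were higher (1.27%, against 10.4%). With 1 left out there were 31 to 97 calls, 11 to 30 higher (9.55% to 16.9% of all regions) and 19 to 67 lower (2.13% to 6.07%). The causes were not tested.

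A replicate block on all 12 control libraries gave 0 calls and 34 lower members (4.82%, against 2.69% of all regions). Same-numbered libraries correlated at -0.197 to 0.481 in deviation from their group means. In 0 of 7 comparisons did every pair exceed 0.1, so the numbers were not taken as pairs, although the libraries numbered 1 were each other's best partner in 5 of the 7. Of 46 named members, 27 kept the sign of their control difference in all 18 alternatives, the 12 of lowest p among them, and 59 of 828 values changed sign. Slco2b1 and Ttpal passed adjustment without the 3 libraries. Depth is unknown, and a percentile shows neither a common shift of all regions nor a loss below the weakest peak.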
